A study of Homo sapiens with 6 samples.

Results

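Collagens are the structural proteins of the extracellular matrix. Each is built from 3 alpha chains that wind into a triple helix, and each chain is the product of its own gene. Fibrillar collagens such as types I and III form the fibres of connective tissue, type IV forms the sheet of the basement membrane under an epithelium, and smaller families decorate fibrils or span the plasma membrane. In the intestine fibrillar collagens are known mainly as products of fibroblasts, although tumour cell lines can transcribe some of them as well.

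The collagen genes were read in COLO-320DM, a human colorectal cancer line, after sorting by CD44, a surface receptor for hyaluronan and a common marker of tumour stem cells. The 6 arrays formed 2 groups of 3, CD44-positive and CD44-negative, each numbered 01, 02 and 03, and all came from untreated cells of this 1 line. Members were the genes to which the platform annotation gave a single symbol of the form COL, a type number, A and a chain number, with antisense genes and pseudogenes left out. This gave 112 probe sets (groups of probes for 1 transcript) for 43 genes, of 19775 genes on the array with a single name. No probe set was matched to COL17A1, a further collagen gene of this form, so it was not read. Each gene was represented by its brightest probe set, averaged over all 6 arrays, and every probe set was read for COL1A1, COL1A2 and COL3A1. Values are log2 of the deposited intensity. A gene averaging below 5.12 (the 30th percentile of the gene means) was called dim and left out of the test. Of the 43 collagen genes 22 lay above this limit, among 13842 genes tested, and 21 were dim. Levels of different probe sets depend on their probes and were not set against each other.

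Arrays correlated at 0.991 to 0.997 over all probe sets, and their median intensities lay between 44.9 and 46.5. The signal difference between the 3′ and the 5′ control probe sets of ACTB, a sign of RNA quality, ran from -0.069 to 0.14 in the CD44-positive and from 0.0016 to 0.083 in the CD44-negative arrays (log2). The sort marker CD44 was higher in every CD44-positive array, by 2.47 ± 0.13 on the log2 scale (SE, replicate block, adjusted p = 0.00176, and 0.106 without the block). The colon transcription factor CDX2 was high in both groups, at 11.61 ± 0.09 in CD44-positive against 11.69 ± 0.20 in CD44-negative cells (log2, SD, n = 3 each). KRT18, an epithelial keratin, stood at 9.95 ± 0.18 in CD44-positive against 10.05 ± 0.03 in CD44-negative cells, but the epithelial adhesion genes EPCAM and CDH1 were dim. Nothing in the labels said that the numbered replicates were separate cultures, so the spread that the p-values rest on may be technical.

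No collagen gene passed the test between CD44-positive and CD44-negative cells, and the collagens as a family lay close to no difference. COL3A1, which encodes the single chain of type III collagen, had the largest difference of the 22 tested and was 1.72-fold higher in CD44-positive cells, a difference seen in 3 of 3 same-numbered pairs. COL1A2, one of the chains of type I collagen, was higher in 3 of 3 pairs, but its CD44-negative mean lay below the dim limit. COL1A1, the gene of the other type I chain, was lower on its brightest probe set, while its others lay near no difference. In 19 of the 22 genes the difference was under 0.2 on the log2 scale in either direction. In bulk RNA, fewer cells of a type and less RNA per cell cannot be told apart.

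The median difference over the 22 genes was -0.0071 on the log2 scale, against -0.0025 over all genes tested, with 9 genes higher and 13 lower. By limma with Benjamini-Hochberg adjustment 0 of 22 passed, against 0% of all genes, and 1 of 22 had an unadjusted p under 0.05, against 1.97% of all genes. The same-numbered arrays of the 2 groups varied together, so a second fit, with a replicate block, was read beside this one. With the replicate block 0 of 22 passed, against 0.0578% of all genes, and 3 had an unadjusted p under 0.05 (13.6%, against 7.49% of all genes). The groups did not overlap in 3 of the 22, COL1A2, COL11A2 and COL1A1 (13.6%, against 5.43% of all genes). COL1A2, which was tested only through its CD44-positive level, is in this count. It is also the 1 gene with an unadjusted p under 0.05 without the block and 1 of the 3 with it. All 3 pairs had 1 sign in 5 genes, which is 22.7%, against 28.5% of all genes. Of these 5, COL3A1, COL1A2, COL11A2 and COL9A2 were higher and COL1A1 lower.

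**Figure D1:**
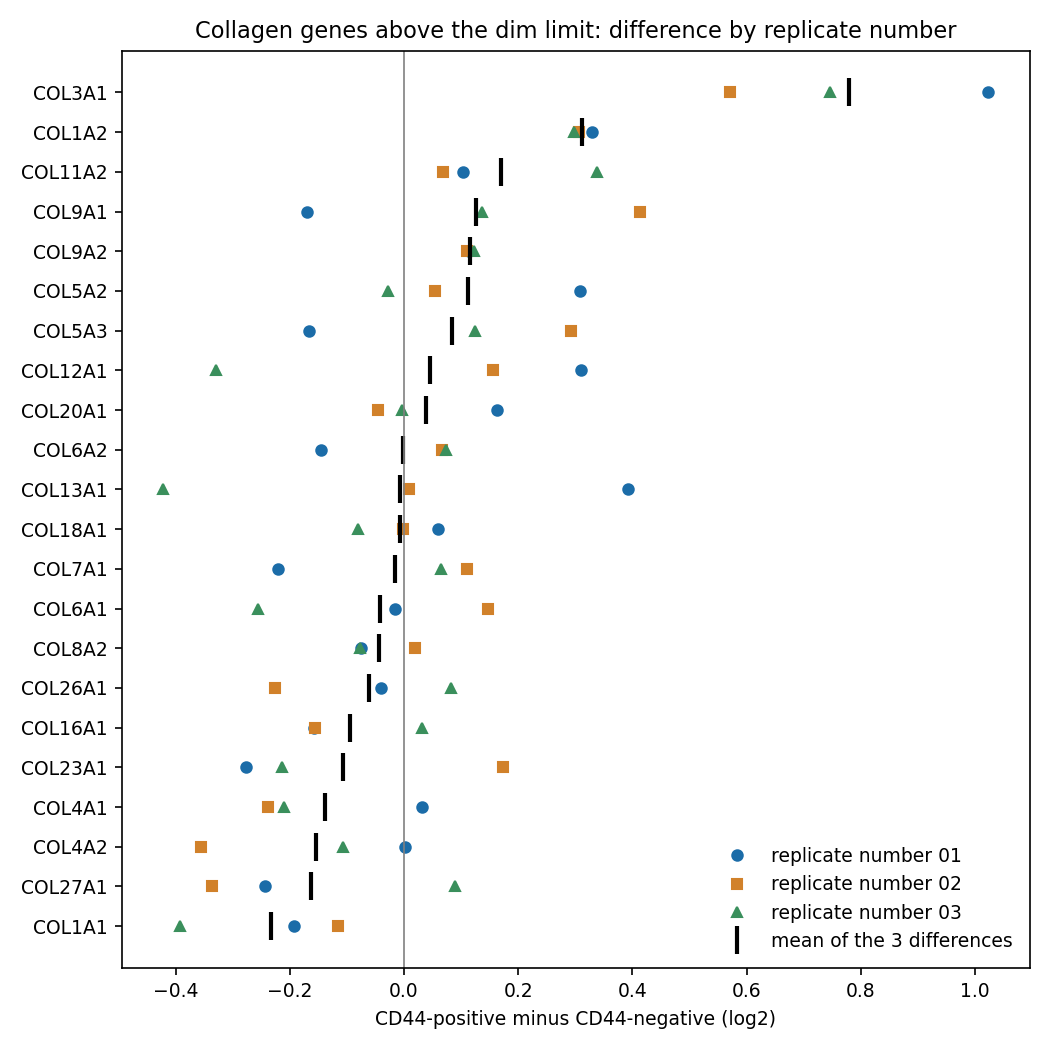
Difference between CD44-positive and CD44-negative arrays of the same replicate number (x axis, log2) for the 22 collagen genes above the dim limit, sorted by mean. COL3A1 lies apart at 0.78 with all 3 pairs on the right of 0, and 19 of the 22 means lie within 0.2 of 0.

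Among the fibrillar collagens 7 of 11 genes lay above the limit, with 5 higher and 2 lower and a median difference of 0.11. COL3A1, whose product forms fibrils together with type I collagen, stood at 11.63, 10.02 and 11.60 in CD44-positive arrays 01, 02 and 03, against 10.61, 9.45 and 10.85 in the CD44-negative arrays. In both groups array 02 was the lowest by more than 1 unit of log2. The groups therefore overlapped, at 11.09 ± 0.92 in CD44-positive against 10.31 ± 0.75 in CD44-negative cells (log2, SD, n = 3 each), while each pair differed in the same direction, by 1.02, 0.57 and 0.75. Without the block the SE of the 0.78 difference was 0.49 (limma, adjusted p = 1.00). Under the block it was 0.095, and the adjusted p of 0.0526 missed the threshold of 0.05. The 95% confidence interval ran from -0.35 to 1.91 without the block and from 0.56 to 1.00 with it. Of 10 fibroblast markers LUM, FBLN1 and FAP were higher in 3 of 3 pairs and POSTN, TCF21 and DPT lower in 3 of 3. The other 4 were mixed. Apart from FBLN1, the markers with 1 sign were dim. Over all genes tested 28.5% had 1 sign in 3 of 3 pairs. The part of the fibroblast markers in the COL3A1 difference was not tested.

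Whether COL3A1 passed depended on the setting. In none of 14 alternatives without the block did it pass. Of 11 alternatives with the block it passed in 6. These adjusted p-values came with median centring (0.0477), with the dim limit at the 50th percentile (0.0402), with a variance trend together with robust moderation (0.000911), with array weights (0.0287), without pair 02 (0.00274) and without pair 03 (0.0102). The share of all genes that passed in these fits was 0.13%, 0.162%, 0.564%, 0.311%, 0.455% and 0.917% in the same order. In the other 5 blocked alternatives the adjusted p ran from 0.0587 with quantile normalization to 0.392 when probe sets with the suffix _s_at or _x_at were dropped. The difference in these 5 was 0.78 with quantile normalization and with no dim limit, and 0.66 without pair 01. It was 0.54 as a mean of probe sets and 0.41 without those suffixes, where another probe set stood for the gene. Without the block, the difference was 1.31 when CD44-positive array 02 was left out, 0.35 when CD44-negative array 02 was left out and 0.23 with array weights.

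Type III collagen had 5 probe sets, 4 of them above the limit. The main one had a blocked adjusted p of 0.0621 in the fit over all 31403 probe sets above the limit. The third brightest read 9.76, 8.13 and 10.08 in the CD44-positive arrays, against 8.79, 7.49 and 9.42 in the CD44-negative arrays. Its difference was 0.76 ± 0.090 (SE, blocked adjusted p = 0.0506). The second brightest read 10.72, 9.10 and 10.68 in CD44-positive arrays, against 9.70, 8.55 and 9.97 in CD44-negative arrays. Its difference was 0.76 (blocked adjusted p = 0.0742). In both of them array 02 was the lowest of each group, as on the main probe set. The one nearest the limit read 5.93, 5.14 and 6.39 in CD44-positive arrays, against 5.59, 4.93 and 5.72 in CD44-negative arrays, and its difference of 0.41 was the smallest of the 4 (blocked adjusted p = 0.381). All 4 were higher in 3 of 3 pairs and overlapped between the groups. Probe sets of 1 gene share the same RNA and are not replicates. Two-sided exact permutation p-values for these 4 were 0.3 to 0.4. The dim probe set differed by 0.0037.

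**Figure D2:**
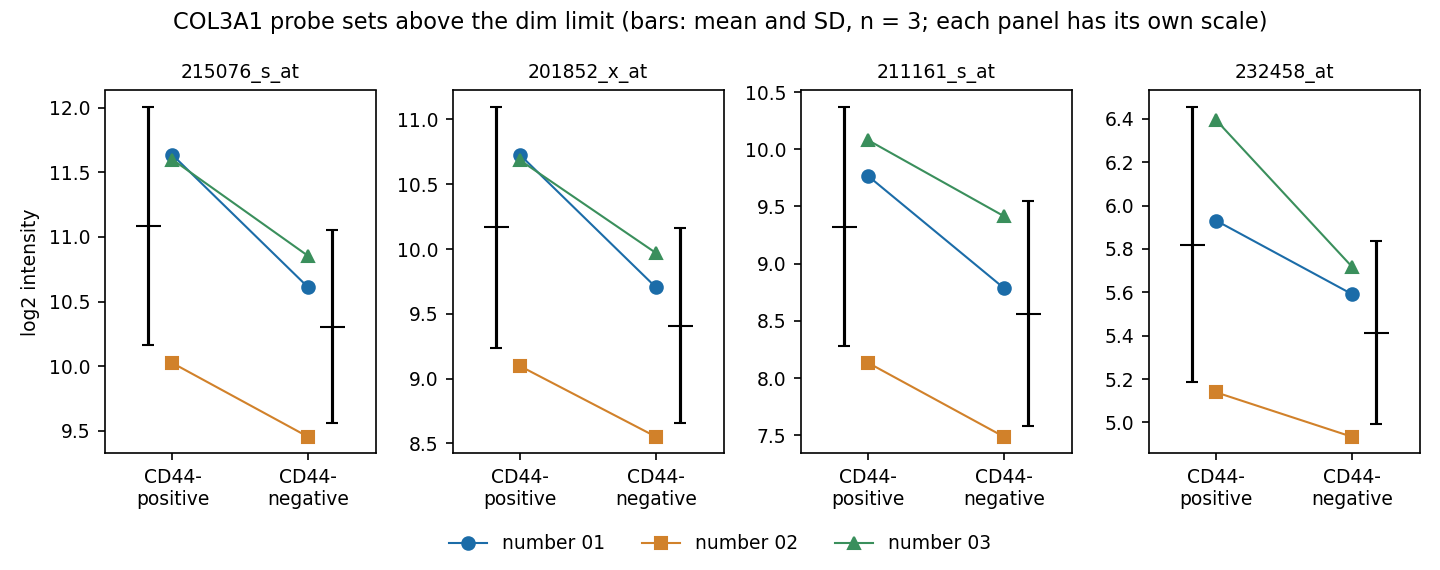
Log2 intensity of the 4 COL3A1 probe sets above the dim limit in CD44-positive (left) and CD44-negative (right) arrays, with a line for each replicate number and the mean and SD (n = 3) beside the points. Every line slopes down to the CD44-negative side, and number 02 lies below the others in each panel.

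COL1A2 encodes the alpha 2 chain of type I collagen, the main fibre protein of skin, tendon and bone. It read 5.36, 5.35 and 5.50 in the CD44-positive arrays, against 5.03, 5.04 and 5.20 in the CD44-negative arrays. The groups did not overlap and the pairs differed by 0.33, 0.31 and 0.30, the most even of the fibrillar genes named here. The difference of 0.31 ± 0.07 (SE, replicate block) had an adjusted p of 0.243, and 1.00 without the block (± 0.09). CD44-negative cells averaged 5.09 ± 0.10, which is below the limit, so the gene was tested only through its CD44-positive level and the size of the difference is uncertain. The other probe sets of COL1A2 were dim at 3.75 ± 0.10 in CD44-positive against 3.89 ± 0.16 in CD44-negative cells and at 3.29 ± 0.10 in CD44-positive against 3.34 ± 0.04 in CD44-negative cells (log2, SD, n = 3 each), with differences of -0.14 and -0.050. A two-sided exact permutation test of the main probe set gave p = 0.1, the smallest value that 3 arrays against 3 allow.

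COL1A1 encodes the alpha 1 chain, which is present in 2 copies in each type I molecule. Its brightest probe set read 7.76, 7.73 and 7.45 in the CD44-positive arrays, against 7.95, 7.85 and 7.85 in the CD44-negative arrays. All CD44-positive values lay below all CD44-negative ones, with a difference of -0.23 ± 0.08 (SE, replicate block, adjusted p = 0.531). This probe set has the suffix _x_at, which marks probes that may also bind other transcripts. The 3 further probe sets above the limit overlapped between the groups and differed by -0.047, 0.034 and 0.040. The fifth was dim at 2.70 ± 0.05 in CD44-positive against 2.75 ± 0.14 in CD44-negative cells. Of the 9 probe sets of COL1A1, COL1A2 and COL3A1 above the limit 0 passed, where 0.00318% of all probe sets passed without the block and 0.0764% with it. At an unadjusted p under 0.05 there was 1 of the 9 without the block, that of COL1A2, where 1.79% of all probe sets were under it. With the block there were 6, of which 4 belong to COL3A1 alone, where 7.34% of all probe sets were under it.

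COL11A2, a chain of the cartilage fibril collagen type XI, read 6.67, 6.69 and 6.95 in the CD44-positive arrays, against 6.57, 6.62 and 6.61 in the CD44-negative arrays. The groups did not overlap on this probe set (0.17 ± 0.08, SE, replicate block, adjusted p = 0.709), but the gene's second probe set differed by -0.050 and overlapped. COL5A2, which encodes a chain of type V collagen, a regulator of fibril width, stood at 6.36 ± 0.28 in CD44-positive against 6.25 ± 0.22 in CD44-negative cells, a difference of 0.11 that was 0.31, 0.054 and -0.029 in the pairs. COL5A3, another type V chain, differed by 0.083 on one probe set and by -0.16 on the other. COL27A1, a fibrillar collagen of cartilage, read 7.91, 8.08 and 8.56 in CD44-positive arrays, against 8.15, 8.42 and 8.47 in CD44-negative arrays, with a difference of -0.16 ± 0.09 (SE, replicate block, adjusted p = 0.776). All 5 of its probe sets were lower on average, by -0.28 to -0.023, and the groups overlapped on the main one. The remaining fibrillar genes COL2A1, COL5A1, COL11A1 and COL24A1 were dim.

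**Figure D3:**
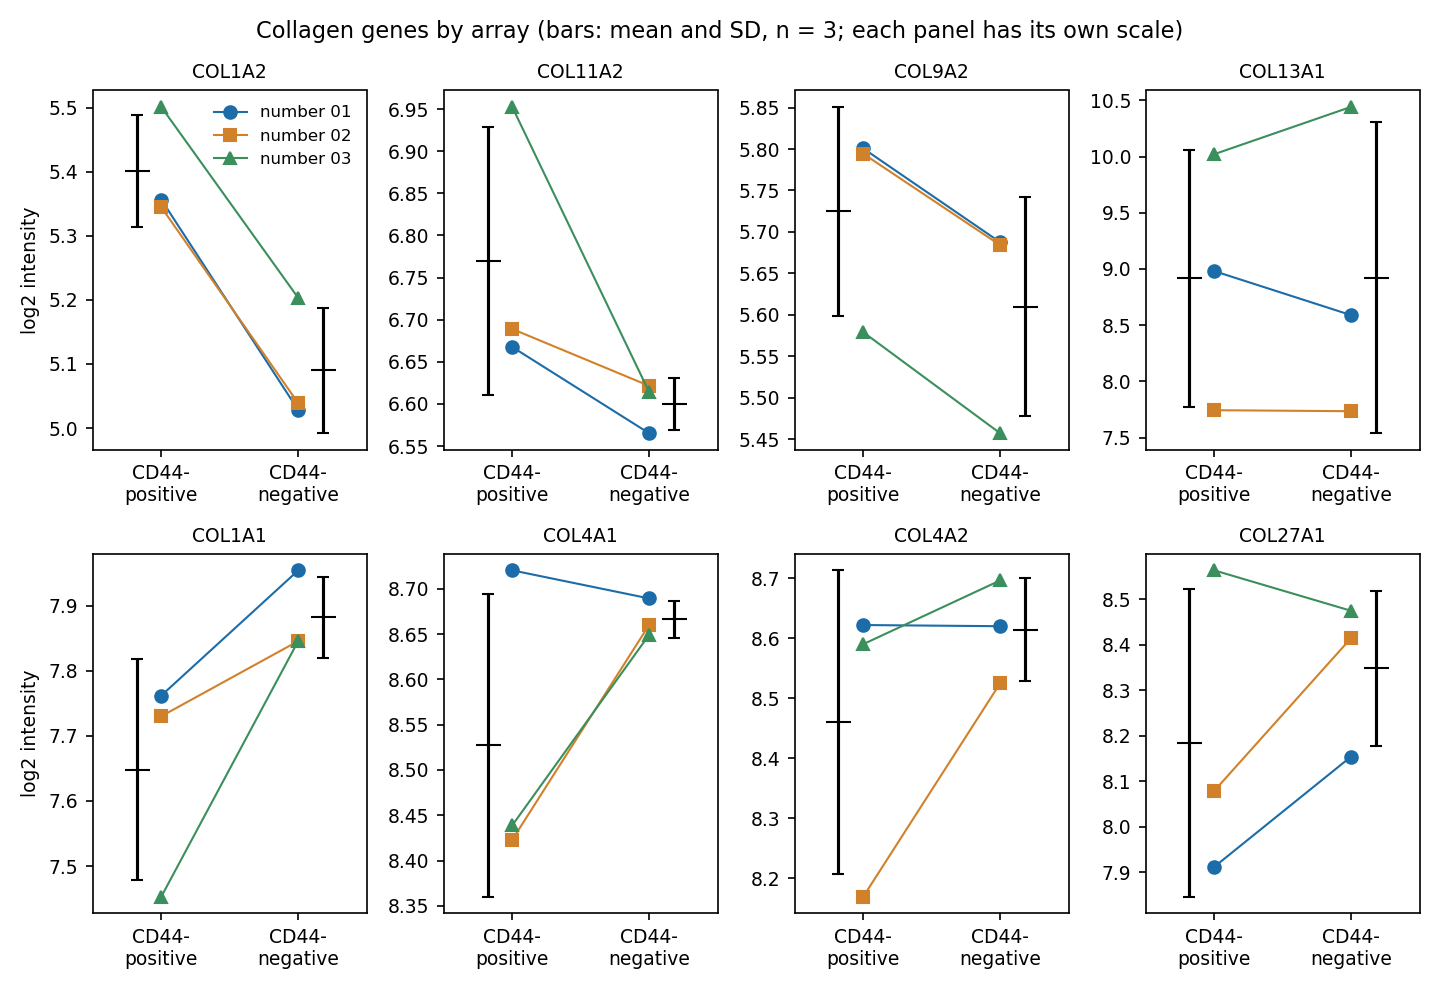
Log2 intensity of 8 collagen genes in CD44-positive (left) and CD44-negative (right) arrays, with a line for each replicate number and the mean and SD (n = 3) beside the points. COL1A2, COL11A2 and COL1A1 separate the groups, while in COL13A1 the replicate numbers lie further apart than the groups.

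Type IV collagen is the network collagen of basement membranes. Its 6 genes lie in head-to-head pairs that are read outward from a common region, so that the promoter windows of partners overlap. The 3 windows are shown because 1 pair, COL4A1 and COL4A2, was above the limit in both groups and the other 4 genes were dim. Each is a window of 300 bases around the start of the gene on the plus strand (RefSeq, GRCh38.p14), mostly upstream of it, and capitals mark the bases that also belong to the window of the partner. The COL4A2 window lies at chr13:110307034-110307333, that of COL4A3 at chr2:227164374-227164673 and that of COL4A5 at chrX:108439588-108439887.
COL4A2: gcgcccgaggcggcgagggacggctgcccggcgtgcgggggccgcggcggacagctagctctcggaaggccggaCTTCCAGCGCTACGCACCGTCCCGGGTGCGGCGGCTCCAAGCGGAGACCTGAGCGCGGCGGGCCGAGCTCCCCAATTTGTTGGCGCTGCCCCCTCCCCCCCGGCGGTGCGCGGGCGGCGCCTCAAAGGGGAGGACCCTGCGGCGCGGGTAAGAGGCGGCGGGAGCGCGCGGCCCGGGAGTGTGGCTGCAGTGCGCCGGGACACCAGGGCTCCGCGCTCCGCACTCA
COL4A3: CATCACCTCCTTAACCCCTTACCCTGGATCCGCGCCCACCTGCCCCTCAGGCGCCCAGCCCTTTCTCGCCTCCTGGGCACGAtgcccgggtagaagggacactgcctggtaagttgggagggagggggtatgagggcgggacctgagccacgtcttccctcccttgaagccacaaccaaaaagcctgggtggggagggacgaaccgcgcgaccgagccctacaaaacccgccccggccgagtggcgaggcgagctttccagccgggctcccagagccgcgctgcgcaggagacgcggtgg
COL4A5: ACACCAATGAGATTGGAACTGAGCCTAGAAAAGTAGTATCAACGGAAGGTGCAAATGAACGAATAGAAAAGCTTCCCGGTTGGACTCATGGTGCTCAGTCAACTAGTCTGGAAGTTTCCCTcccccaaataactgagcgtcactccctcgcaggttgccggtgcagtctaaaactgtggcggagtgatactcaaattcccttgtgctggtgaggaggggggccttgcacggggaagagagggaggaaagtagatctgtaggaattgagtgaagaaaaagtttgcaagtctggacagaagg

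The starts of COL4A1 and COL4A2 lay 127 bases apart and their windows shared 226 bases. COL4A3 and COL4A4 started 419 bases apart with 82 shared bases, and COL4A5 and the nearest start of COL4A6 were 380 bases apart with 121 shared. The windows differed in base composition, with 77.7% G or C and 45 CpG sites for COL4A2, 67.7% and 24 for COL4A3, and 49.3% and 8 for COL4A5. Over the 35116 windows of that length in the table the medians were 58.7% and 14. The CCAAT motif, searched on both strands, occurred in the shared part of the windows of COL4A2 (1 copy) and COL4A5 (2 copies), and in 34.6% of all windows. The GC box GGGCGG, searched likewise, occurred once in the COL4A2 window, inside the shared part, and on each strand of the COL4A3 window outside it. It was present in 45.0% of all windows. The TATA motif TATAAA was on neither strand of the 3 windows and was present in 11.5% of all. A match describes the letters and not a binding site. The table held windows for 31 of the 43 collagen genes.

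COL4A1 read 8.72, 8.42 and 8.44 in the CD44-positive arrays, against 8.69, 8.66 and 8.65 in the CD44-negative arrays. COL4A2 read 8.62, 8.17 and 8.59 in CD44-positive arrays, against 8.62, 8.53 and 8.70 in CD44-negative arrays. Both partners were lower in pairs 02 and 03, by -0.24 and -0.21 for COL4A1 and by -0.36 and -0.11 for COL4A2, and close to 0 in pair 01 (0.031 and 0.0020). With the block their differences were -0.14 ± 0.08 (SE, adjusted p = 0.775) and -0.15 ± 0.09 (adjusted p = 0.773), and the groups overlapped in both. The second probe sets gave 0.041 for COL4A1 and -0.15 for COL4A2. COL4A3 was dim at 4.42 ± 0.30 in CD44-positive against 4.52 ± 0.13 in CD44-negative cells, COL4A4 at 3.79 ± 0.08 in CD44-positive against 3.74 ± 0.08 in CD44-negative cells, and COL4A6 at 3.91 ± 0.15 in CD44-positive against 3.86 ± 0.12 in CD44-negative cells (log2, SD, n = 3 each). COL4A5 was dim at 3.44 ± 0.10 in CD44-positive against 3.75 ± 0.13 in CD44-negative cells. Read by brightest probe sets, it was the 1 dim collagen gene whose groups did not overlap. A further dim probe set of COL4A3 also separated the groups, in the other direction (0.32). The share of all dim genes without overlap was not computed. In the fit with no dim limit the blocked adjusted p of COL4A5 was 0.415. Its second probe set also separated the groups, by only -0.088 and far below the dim limit. That probe set stood at 2.30 ± 0.03 in CD44-positive against 2.38 ± 0.02 in CD44-negative cells.

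Of the fibril-associated collagens, which sit on the surface of fibrils, 5 of 10 lay above the limit, 4 higher and 1 lower, with a median difference of 0.046. COL9A2, a chain of the cartilage collagen type IX, read 5.80, 5.79 and 5.58 in the CD44-positive arrays, against 5.69, 5.68 and 5.46 in the CD44-negative arrays. Its pairs differed evenly, by 0.11, 0.11 and 0.12, but the groups overlapped, since array 03 was the lowest in each (0.12 ± 0.07, SE, replicate block, adjusted p = 0.775). The gene's second probe set, also above the limit, was not even, with a difference of 0.047 and pair values of 0.012, -0.091 and 0.22. COL9A1, another type IX chain, stood at 6.62 ± 0.40 in CD44-positive against 6.50 ± 0.48 in CD44-negative cells, with pair differences of -0.17, 0.41 and 0.14. COL12A1, COL16A1 and COL20A1 differed by 0.046, -0.094 and 0.038, and COL9A3, COL14A1, COL19A1, COL21A1 and COL22A1 were dim.

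COL13A1 encodes a collagen anchored in the plasma membrane, where it is known from cell adhesion sites and the neuromuscular junction. It read 8.98, 7.74 and 10.02 in CD44-positive arrays 01, 02 and 03, against 8.59, 7.73 and 10.44 in the CD44-negative arrays. The groups overlapped, with a mean difference of -0.0068 and pair values of 0.39, 0.0089 and -0.42. The replicate numbers lay far apart instead, at 8.78, 7.74 and 10.23 when both groups were averaged, in the order 01, 02 and 03. This range of 2.49 was equalled or exceeded by 5 of the 13842 genes, itself included (0.0361%), where the median range was 0.21. The other probe sets of COL13A1, both with the suffix _x_at, had ranges of 1.07 and 0.75 with the same order of numbers.

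COL3A1 shared part of this pattern, with number means of 11.12, 9.74 and 11.23 and a range of 1.49, equalled or exceeded by 38 genes (0.275%). COL9A1 had number means of 6.46, 6.20 and 7.02 and a range of 0.82, equalled or exceeded by 255 genes (1.84%). In 9 of the 22 collagens number 02 was the lowest. In COL1A2 (5.1919 against 5.1923 for number 01) and COL4A1 (8.542 against 8.544 for number 03) it was nearly level with another number. The share over all genes was not computed, so no pattern is read from this count. The spreads of COL13A1, COL3A1 and COL9A1 were picked after their values were seen and are a description. COL1A2, with a range of 0.16, had an SE of 0.094 without and 0.066 with the block. The labels did not say what the numbers stand for, and the source of the spread between them was not tested.

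**Figure D4:**
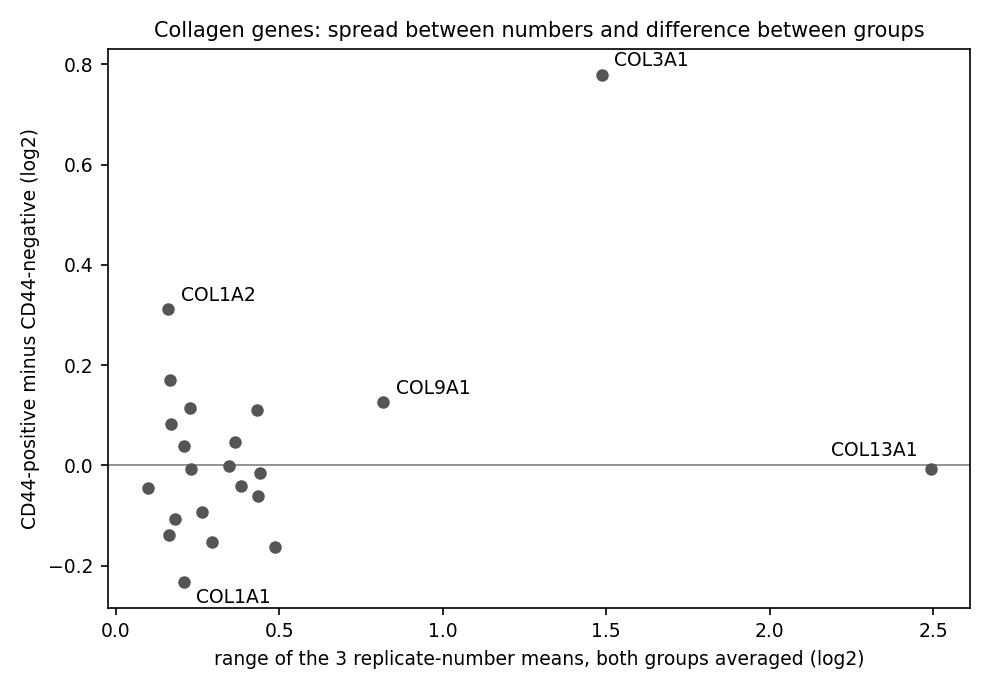
For the 22 collagen genes above the limit, the range of the 3 replicate-number means with both groups averaged (x axis, log2) against the difference between CD44-positive and CD44-negative cells (y axis, log2). COL13A1 has the widest range, 2.49, with a difference near 0, and COL3A1 combines a range of 1.49 with the largest difference, 0.78.

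In the remaining families no gene above the dim limit had 3 pairs of 1 sign. COL6A1 and COL6A2, chains of the microfibrillar type VI, differed by -0.042 and -0.0018, and COL7A1, the anchoring fibril collagen of skin and mucosa, by -0.016. Among 5 COL6A1 probe sets above the limit, 1 separated the groups (0.36, blocked adjusted p = 0.523), while the other 4 lay between -0.070 and 0.0072. The transmembrane COL23A1 differed by -0.11, COL18A1, the source of endostatin, by -0.0074, COL8A2, a network collagen of vessels and cornea, by -0.044, and COL26A1 by -0.061. COL6A3, COL6A5, COL6A6, COL8A1, COL10A1, COL15A1, COL25A1 and COL28A1 were dim. Over the 21 dim genes the differences ran from -0.31 to 0.19, with means from 2.59 to 5.10. Of 13 tested genes with several probe sets above the limit, 7 had probe sets of both signs.

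Collagen chains need a dedicated machinery in the endoplasmic reticulum, and these genes were read from a list of 19 hydroxylases, glycosyltransferases and chaperones, of which 18 were named and all 18 lay above the limit. None passed without or with the block, 11 were higher and 7 lower, and the median difference was 0.038, against -0.0025 over all genes. PLOD2, a lysyl hydroxylase that sets the type of crosslink in fibrils, read 9.96 ± 0.19 in CD44-positive against 9.66 ± 0.26 in CD44-negative cells (log2, SD, n = 3 each). It was higher in 3 of 3 pairs, by 0.43, 0.25 and 0.19 (0.29, adjusted p = 0.375 with the block). P4HA2, a catalytic subunit of prolyl 4-hydroxylase, differed by 0.21 (adjusted p = 0.531), CRTAP, part of the prolyl 3-hydroxylation complex, by 0.18, and PLOD3, a further lysyl hydroxylase, by 0.14. These 3 were also higher in 3 of 3 pairs, as were P4HA1, PLOD1, COLGALT1 and MIA3. SERPINH1 and PPIB were lower in 3 of 3, and the rest of the list had mixed signs. Over all genes 28.5% had 1 sign in 3 of 3 pairs, a lower share than in this list. MIA3 also separated the groups (0.088, blocked adjusted p = 0.853), as did 5.43% of all genes. P4HB, the partner subunit of prolyl 4-hydroxylase, stood at 11.53 in CD44-positive against 11.55 in CD44-negative cells, and SERPINH1, the collagen chaperone HSP47, at 8.73 in CD44-positive against 8.81 in CD44-negative cells.

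Outside the cell, procollagens are trimmed, crosslinked and coated. Of the 10 propeptide processing genes 6 lay above the limit, none passed, and the median was 0.049. PCOLCE2, an enhancer of the C-proteinase, stood at 8.92 ± 0.47 in CD44-positive against 8.70 ± 0.41 in CD44-negative cells and was higher in 3 of 3 pairs (0.22, blocked adjusted p = 0.673). BMP1, the C-proteinase itself, differed by 0.14 and MEP1B, a meprin, by 0.083. ADAMTS2, the N-proteinase of types I and III, was lower in 3 of 3 pairs (-0.17, blocked adjusted p = 0.664). Of the 5 crosslinking lysyl oxidases LOX and LOXL1 were dim and the 3 tested differed by -0.072 to 0.090, with a median of 0.048. Among the 12 fibril-associated proteoglycans and glycoproteins 7 were tested, with 3 higher, none passing and a median of -0.036. FN1, the matrix glycoprotein fibronectin, separated the groups at 6.63 ± 0.085 in CD44-positive against 6.94 ± 0.03 in CD44-negative cells (-0.31, blocked adjusted p = 0.292), in the direction opposite to COL3A1. BGN and FMOD, small proteoglycans of fibrils, differed by 0.13 and 0.12, and OGN, a further small proteoglycan, by -0.085. SPARC, POSTN and LUM were among the dim ones, and LUM is described with the fibroblast markers.

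The collagen receptors tested varied little. Of the 11 on the list 10 were named on the array and 8 were tested, so the list was not read in full. None passed, and all differences lay between -0.079 and 0.051, with a median of -0.0031. ITGB1, the beta subunit of the collagen-binding integrins, stood at 11.64 in CD44-positive against 11.61 in CD44-negative cells, and its partner ITGA2 at 9.50 in both groups. DDR2, a tyrosine kinase receptor for fibrillar collagen, differed by -0.079, and the integrin chains ITGA11 and ITGA10 by 0.051 and -0.033. Collagen-degrading enzymes had 6 of 11 members tested, none passing, with a median of 0.049. CTSL, a lysosomal cathepsin, was lower in 3 of 3 pairs, at 6.25 ± 0.19 in CD44-positive against 6.55 ± 0.25 in CD44-negative cells (-0.30, blocked adjusted p = 0.327). MMP14, a membrane collagenase, differed by 0.12, the gelatinases MMP2 and MMP9 by 0.094 and -0.060, and the secreted collagenases MMP1, MMP8 and MMP13 were dim. Other proteins with collagen-like domains had 27 of 30 members named on the array and 13 tested, 7 higher and 6 lower, none passing. Their median was 0.017. COLEC12, a scavenger receptor, differed by 0.32 (0.89, -0.054 and 0.12 in the pairs), COLEC11, a soluble collectin, by -0.18, COLQ, the collagenous tail of acetylcholinesterase, by -0.19 and MARCO, a macrophage receptor, by -0.15.

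**Figure D5:**
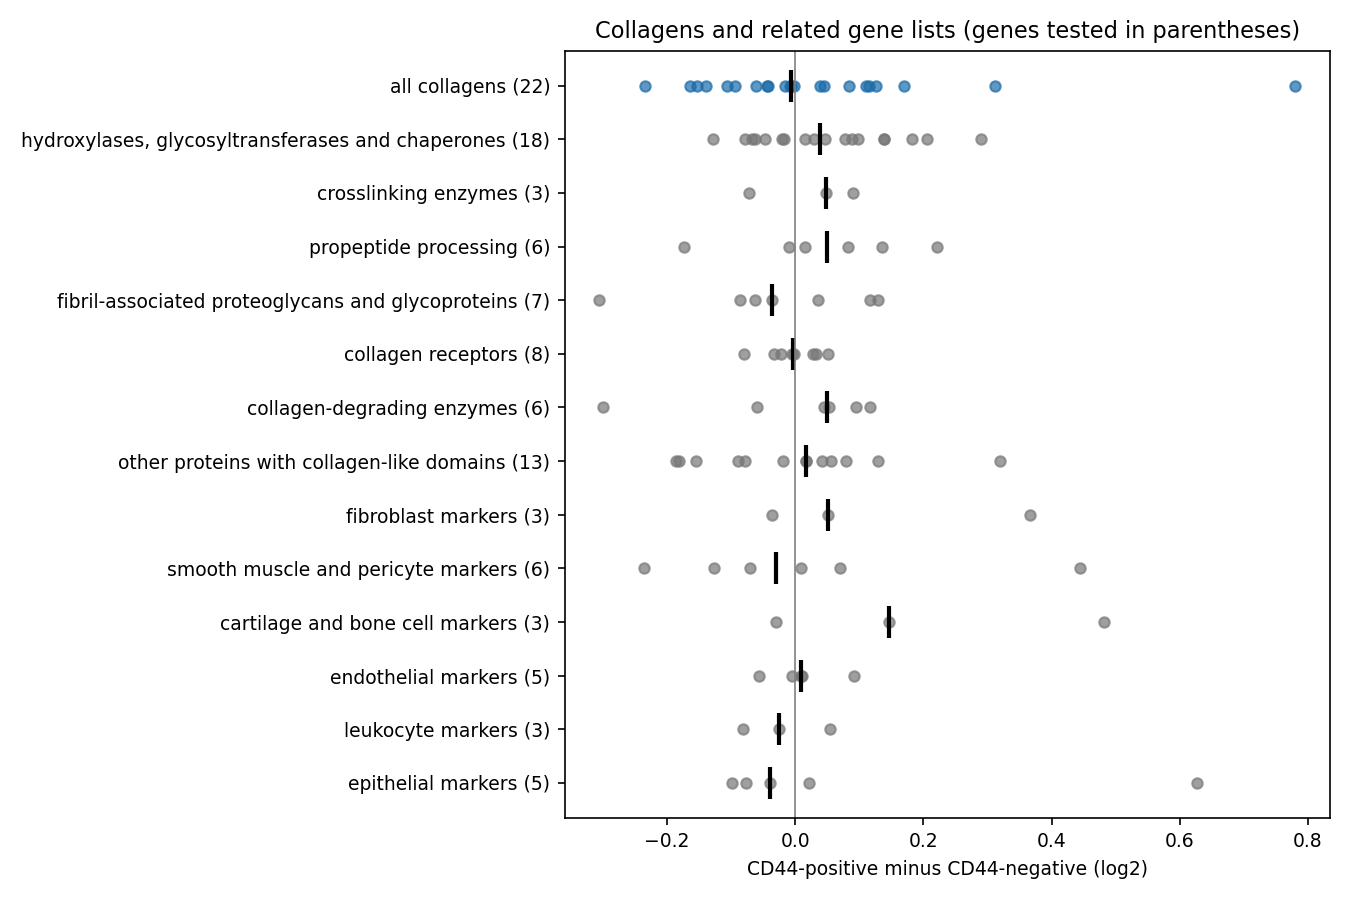
Difference between CD44-positive and CD44-negative cells (x axis, log2) for each tested gene of the collagens and of 13 related lists, with the median of each list as a bar. All list medians lie between -0.040 and 0.15, and COL3A1 at 0.78 is the point farthest to the right.

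Since fibrillar collagens are typical of fibroblasts, markers of other cell types were read beside them. Of 10 fibroblast markers 3 were tested, with a median of 0.052, and LUM, PDGFRA, FAP, PDPN, POSTN, TCF21 and DPT were dim on average. LUM, which encodes the fibril proteoglycan lumican, nevertheless read 5.63, 4.18 and 3.84 in the CD44-positive arrays, against 2.36, 2.79 and 2.44 in the CD44-negative arrays. The groups did not overlap, but only CD44-positive array 01 lay above the dim limit, so the size of the difference is not known. With no dim limit its adjusted p was 1.00, and 0.173 with the block, and its second probe set differed by -0.013. The other 6 dim markers differed by -0.17 to 0.16. FBLN1, the matrix protein fibulin-1, stood at 8.50 ± 0.41 in CD44-positive against 8.13 ± 0.13 in CD44-negative cells (0.37, blocked adjusted p = 0.636) and was higher in 3 of 3 pairs, THY1 differed by 0.052 and DCN by -0.036. The summed intensity of the 10 ran from 547 to 783 in the CD44-positive and from 502 to 571 in the CD44-negative arrays. Such a sum adds levels of unlike probe sets, so it follows the brightest of them, here FBLN1, and does not measure a cell type. Of 8 smooth muscle and pericyte markers 6 were tested, with a median of -0.030. ACTA2, smooth muscle actin, stood at 5.49 ± 0.42 in CD44-positive against 5.05 ± 0.25 in CD44-negative cells (blocked adjusted p = 0.234). Its CD44-negative mean was under the dim limit, so it was tested only through its CD44-positive level and the size is uncertain. DES, desmin, separated the groups and was lower (-0.24, blocked adjusted p = 0.519). The pericyte genes PDGFRB and RGS5 differed by -0.13 and -0.070. The 8 markers together had a summed intensity that was 440 to 472 in CD44-positive against 460 to 464 in CD44-negative arrays.

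Cartilage and bone cell markers had 7 of 8 members named on the array and 3 tested, with a median of 0.15. RUNX2, a bone transcription factor, stood at 8.66 ± 0.35 in CD44-positive against 8.18 ± 0.51 in CD44-negative cells, with pair values of 1.22, 0.17 and 0.060, and SOX9, a transcription factor of cartilage and of intestinal crypts, differed by 0.15, with the highest value of each group in array 02. COMP, MATN3, SP7 and IBSP were dim, and the summed intensity of the measured markers was 484 to 714 in CD44-positive against 383 to 664 in CD44-negative arrays. Endothelial markers had a median of 0.0085 over 5 tested and summed to 305 to 342 in CD44-positive against 302 to 328 in CD44-negative arrays. Leukocyte markers had a median of -0.026 over 3 tested and summed to 352 to 365 in CD44-positive against 360 to 386 in CD44-negative arrays. No marker of these 5 lists passed in either fit. The epithelial list had a median of -0.040 over 5 tested, none passing, and summed to 4441 to 4969 in CD44-positive against 4497 to 5385 in CD44-negative arrays. Like the fibroblast sum, these sums follow their brightest genes, RUNX2 in the bone list and CDX2 in the epithelial one. The epithelial gene KRT20, a keratin of differentiated colon cells, separated the groups at 6.97 ± 0.28 in CD44-positive against 6.34 ± 0.25 in CD44-negative cells (0.63, blocked adjusted p = 0.298). The dim EPCAM stood at 4.40 ± 0.29 in CD44-positive against 4.87 ± 0.12 in CD44-negative cells, without overlap (-0.47, blocked adjusted p = 0.217 with no dim limit). The part of the fibroblast, smooth muscle and bone markers in the COL3A1 difference was not tested.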

How the data were processed

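Sorted COLO-320DM cells were profiled as biotin-labelled total RNA on Affymetrix arrays, according to the labels. The deposited intensity values had been made with RMA, which corrects background, normalizes by quantiles and summarises probes, per the submitters' processing notes. A version and genome build are not given in the sources used here. Because the deposited table was linear, log2 was taken without a pseudocount. RMA can compress differences near the background.

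The array held 54675 probe sets, 62 of them controls. Platform annotation named 1 gene for 41091, several for 1801 and none for 11721, and symbols were updated through RefSeq gene IDs. Groups were compared over all 13842 genes above the 30th percentile, and over all 31403 probe sets above the same limit, with limma 3.58.1 (R 4.3.3), two-sided, Benjamini-Hochberg adjusted over all of them. Single probe sets were also tested by exact permutation. The scripts were tested on simulated data. Tables and figures were made with Python 3.11.15, pandas 2.3.3, numpy 2.4.6 and matplotlib 3.10.9. The number of arrays limits the precision.

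The labels share numbers 01 to 03 without saying why. For arrays of equal number, departures from their group mean had correlations of 0.465, 0.689 and 0.626. Pairing was therefore assumed, from the data alone, and the blocked fit stands beside the planned unblocked one. Alternatives were normalization, dim limit, variance moderation, array weights, probe set choice and leaving out arrays or pairs.

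The members and lists were chosen with earlier results of these data known. Values in every array were to be given for COL1A1, COL1A2, COL3A1, for collagens past the threshold and for the 4 of each direction lowest in unadjusted p. In the other lists members past the threshold, or else up to 4 with the smallest blocked p, were to be named. COL13A1, COL9A1, LUM, EPCAM, the other named dim genes, P4HB, SERPINH1, ITGB1 and ITGA2 were added after their values were seen. So were P4HA1, PLOD1, COLGALT1, MIA3 and PPIB.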

Additional observations from a re-analysis of the deposited data

How the results depend on the processing

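No collagen gene passed in any of the 14 alternatives without the block. With the replicate block alone the counts were also 0. With the block, 1 collagen gene, COL3A1, passed with median centring, 1 with the limit at the 50th percentile, 1 under a variance trend with robust moderation (2 choices changed together), 1 under array weights, and 0 to 1 when a pair was left out. Its difference in these fits was 0.69 to 0.88. Of the probe sets of COL1A1, COL1A2 and COL3A1, 2 of COL3A1 passed with the block and median centring or the 50th percentile, 3 with the trend and robust moderation or with array weights, and 0 to 3 when a pair was left out. The median over the collagens ran from -0.052 to 0.042 when 1 array was left out and from -0.027 to 0.044 when a pair was left out with the block, so its sign is not fixed. COL11A2 turned to -0.050, with and without the block, when only probe sets lacking those 2 shared-probe suffixes (_s_at, _x_at) were used. In the other lists 0 to 1 gene passed when a pair was left out with the block (ACTA2, without pair 02). Over 198 values of the 8 named collagens under the alternatives, 190 kept their sign and their side of the threshold, 6 passed (all COL3A1) and 2 changed sign. COL1A2 and COL9A2 fell under the limit and were not tested at the 50th percentile, nor was COL1A2 as a mean of its probe sets. COL1A1 and COL1A2 have no value without those suffixes, since all probe sets of COL1A1 carry one and the only COL1A2 probe set that does not is dim. Over all genes 0 to 2 passed without the block and 4 to 127 with it, against 0 in the planned fit and 8 with the block alone. The cause of these shifts was not tested. With 3 arrays a group and no detection calls, small differences near the dim limit could not be resolved.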
